A study of Danio rerio with 6 samples.

Results

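Zebrafish genes with clone-based names make up 104 of the 223 genes (46.6%) in the deposited table of genes that the authors selected by comparing whole eyes of *crim1*-/- larvae with those of controls. The members were found by symbol. A gene was taken when its symbol starts with si:, zgc:, zmp:, im:, wu: or sb:, when the symbol is the accession of a sequenced clone or contig followed by a dot and a number, or when the row has a gene ID and no symbol. The study compared 3 libraries of *crim1*-/- eyes with 3 libraries of wildtype eyes by the sample labels, each from whole eyes dissected at 72 hpf. The *crim1*-/- larvae came from in-crosses of homozygous fish, which the paper raised from larvae that appeared free of eye defects. These larvae carry a frameshifting deletion derived from a single founder. The methods derive control fish from the EKW or the NBT:DsRed strain, so genotype and parents differ together. The paper describes the sequenced eyes as pooled. The sample titles call the *crim1*-/- libraries knockdown, while the genotype labels and the methods describe a mutant. The label whole eye and the cell type label, which reads all, could not be checked against a full set of marker genes. The table holds only genes picked by the comparison, lens gamma crystallin genes among them. The level of *crim1* in each library could not be examined for the same check, since the table gives 1 mean over both genotypes.

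A clone-based name is a placeholder. The prefix si: comes from the Sanger Institute's annotation of cloned genomic DNA and is followed by the library and clone, so that si:dkey and si:ch211 names point to clones of different bacterial artificial chromosome libraries. The prefix zgc: marks a full-length cDNA of the Zebrafish Gene Collection, and zmp: was assigned in the Zebrafish Mutation Project. In a symbol such as BX927081.1, BX927081 is the accession of the clone or contig on which the gene model was drawn, and the number after the dot tells apart genes of the same clone. Such a name stays until a gene name is given, so it does not by itself show that no family, ortholog or function is known. Genes named in this way can belong to families that expanded in fish or can be non-coding RNAs. How many members belong to such families was not counted.

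Among the 104 genes, si: names were the most frequent, with 42 genes (40.4%), followed by clone accessions with 38 (36.5%). There were 14 zgc: genes (13.5%), 6 genes named from accessions that begin with CABZ (5.77%), 3 zmp: genes (2.88%) and 1 row, ENSDARG00000098171, with no symbol. No im:, wu: or sb: symbol was listed. The si: names came from 4 libraries, with 22 genes from dkey, 12 from ch211, 6 from ch73 and 2 from ch1073 clones.

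Most members still had a clone-based name when looked up, and some did not. How far the genes are characterised could not be read from the names alone. In the gene name table used here, 90 of the 104 gene IDs were found. Of these, 48 kept the deposited name and 32 had another clone-based name, 28 of which replaced a clone accession by a name such as si:ch211-64i20.6 for BX927122.1. A gene name stood in place of the clone name for 7 members, and a serial name for a non-coding RNA for 3, which were BX927184.1 (linc.6913), CR293509.1 (lnc.363) and BX005254.2 (linc.3852). The 14 IDs that were not matched include all 6 genes with CABZ names. The row without a symbol is zgc:162193 in that table, again a clone-based name, and RefSeq lists *tcaf* and *fam115* among its synonyms.

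**Figure D1:**
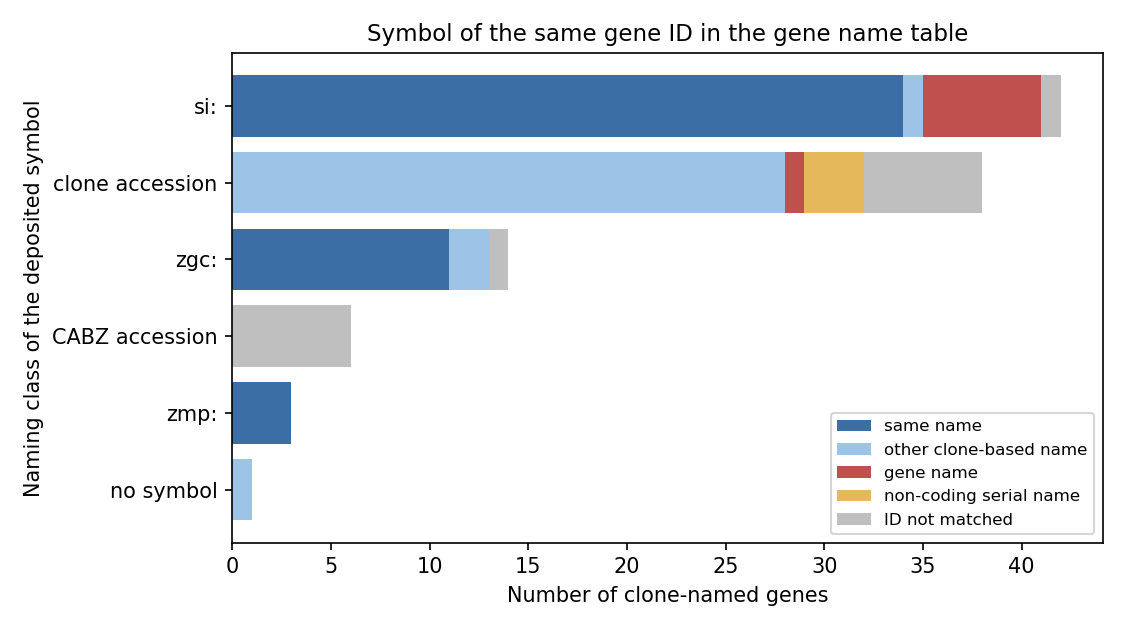
Horizontal bars give the number of clone-named genes (x axis) in each naming class of the deposited symbol (y axis), and the colours show the name of the same gene ID in the gene name table. Most si: genes kept their name (34 of 42), most clone accessions had another clone-based name (28 of 38), and the 6 CABZ genes were not matched.

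The 7 members with a gene name have a range of known roles. si:ch73-1a9.3 is *hmgn1b*, of the HMGN family of nucleosome-binding proteins, and RefSeq gives it the further synonym *linc-mipep*, from a time when its transcript was held to be non-coding. si:dkey-5n18.1 is *c1ql1*, of a family of secreted proteins with a C1q domain that act at synapses in mammals. si:dkey-33i11.4 is *fxyd11*, of the FXYD family of small membrane proteins that modulate the sodium pump. si:ch211-117c9.2 is *slc26a6l2*, of a family of anion exchangers. si:ch211-127b11.1 is *plxnb2a.2*, of the plexins, which are receptors for semaphorins. CR792417.1 is *adtrp* in the gene name table, of a family of membrane-bound lipid hydrolases, and had no match in RefSeq. si:dkey-269i1.4 is *ctslb.4* in the gene name table, of the cathepsin L proteases, but RefSeq lists *ctslb.4* and si:dkey-269i1.4 as separate genes, so that this identity is uncertain. The lowest member, si:ch211-197g15.6, is likewise si:ch211-197g15.9 in 1 table and a synonym of *ifi44f5* in the other.

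The measure available for each gene was its mean normalized count, which is the mean over all libraries, of both genotypes together, after the authors scaled the counts by size factors. It is the authors' mean, it has no value or spread per library, and it is not divided by transcript length. It therefore gives the reads behind each gene and not its RNA level relative to other genes. The direction and size of change in *crim1*-/- eyes are not given, since they stand only in columns of the authors' own comparison, which were not used here. The depth of single libraries is unknown.

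The members' mean normalized counts ranged from 13.2 to 14769, with a median of 73.9 and quartiles of 40.5 and 163. si:ch73-1a9.3 (*hmgn1b*) had the highest, 14769, which is 43.6% of the sum over all 104 members and 3.94 times that of the next member. It was 4th by mean normalized count among all 223 listed genes. The second was zgc:153846, with 3749 normalized counts, and the third was BX927081.1, with 1036. These 3 were the members above 1000 normalized counts. The next was zgc:173552 with 977, followed by si:dkey-253d23.3 with 934 and si:ch211-285f17.1 with 785. si:ch1073-340i21.3 had 735 normalized counts, zmp:0000001048 had 641, si:dkey-111k8.5 had 444 and zgc:172014 had 433. Of these 10 genes, RefSeq lists 8 as protein-coding, and BX927081.1 and si:dkey-111k8.5 had no match there.

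At the low end, si:ch211-197g15.6 had 13.2 normalized counts, si:ch211-127b11.1 (*plxnb2a.2*) had 14.1, CABZ01065328.1 had 14.7, CR790366.3 had 15.2 and si:dkey-58f10.4 had 17.5. The members with a gene name spanned nearly the whole range. *hmgn1b* was at its top, *c1ql1* had 150 normalized counts, the gene given as *ctslb.4* 130, *adtrp* 120, *fxyd11* 87.1 and *slc26a6l2* 19.5, and *plxnb2a.2* was the member with the second lowest mean. The 3 members with serial names of non-coding RNAs had 300.2 (BX927184.1), 44.2 (CR293509.1) and 19.7 (BX005254.2) normalized counts.

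The naming classes overlapped in their mean normalized counts. The zgc: genes had the highest median of the classes with more than 1 gene, 175 normalized counts over a range of 26.3 to 3749. The median was 83.1 for si: genes (13.2 to 14769), 66.5 for clone accessions (15.2 to 1036) and 45.5 for CABZ names (14.7 to 238). The 3 zmp: genes had 641 (zmp:0000001048), 54.2 (zmp:0000000984) and 38.9 (zmp:0000001020) normalized counts, and ENSDARG00000098171 had 160.3. Each class reached below 50 normalized counts, except the row without a symbol.

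**Figure D2:**
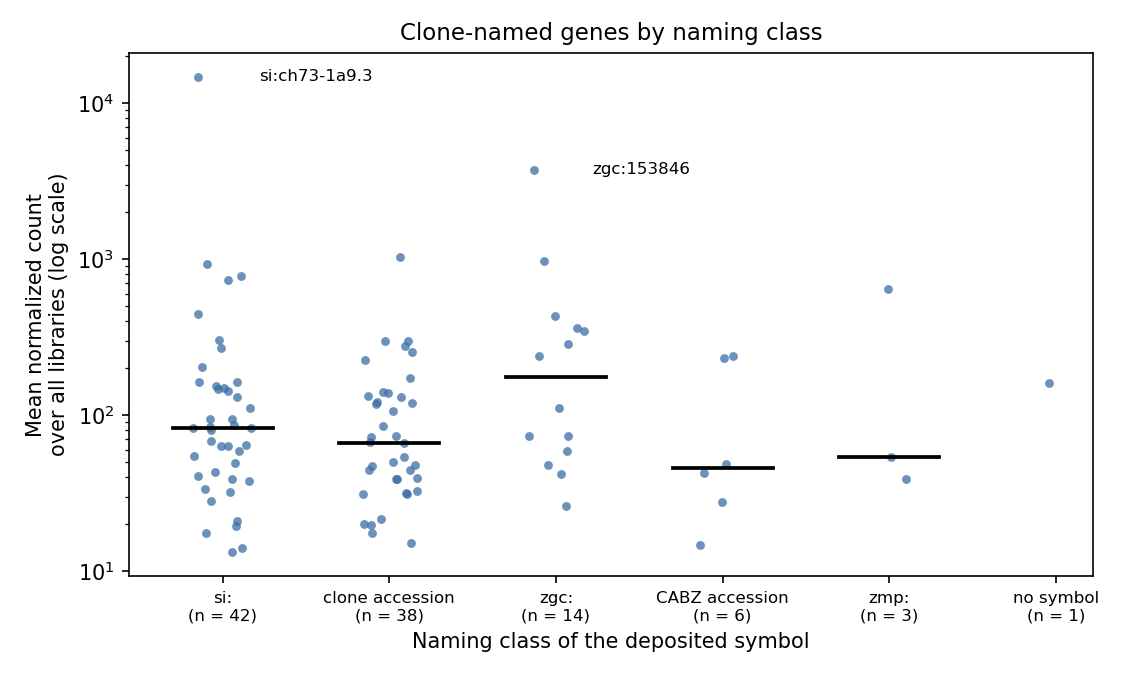
Each point is a clone-named gene, placed by naming class (x axis) and by the mean normalized count of all libraries on a log scale (y axis), and the black lines are medians of classes with more than 1 gene. The classes overlap, and si:ch73-1a9.3 (14769) and zgc:153846 (3749) lie above all other members.

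Clone-named genes rested on fewer reads than the rest of the table. Their median of 73.9 normalized counts compares with 151 in the 119 other listed genes, a ratio of 0.489. At least 50 normalized counts were reached by 66 of 104 clone-named genes (63.5%) and by 100 of 119 others (84.0%), and at least 1000 by 3 (2.88%) and 11 (9.24%). The 104 members held 5.27% of the summed mean normalized counts of the table. Most of that sum came from the gamma crystallin genes *crygm2d17* (357210), *crygm2d20* (100967) and *crygm2d9* (98025). The share therefore says little about the members against the remaining listed genes. The single lowest gene of the table was not a member, since the other genes began at 6.76 normalized counts and the members at 13.2. These values describe the listed genes and were not tested, because the number of reads also bears on which genes a comparison can select, and longer transcripts collect more reads.

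**Figure D3:**
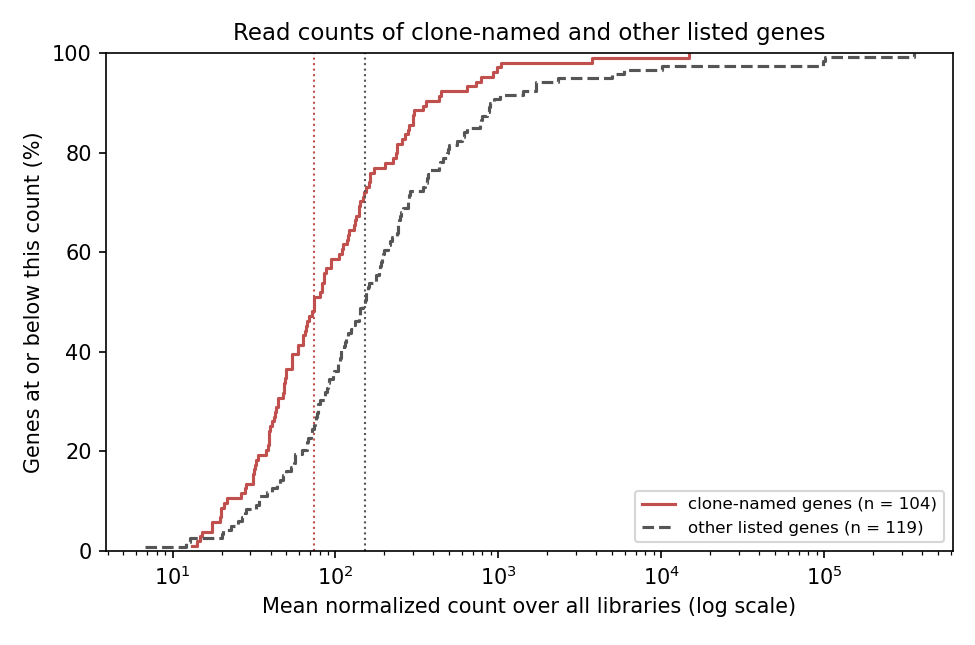
The lines give the percentage of genes (y axis) at or below each mean normalized count over all libraries (x axis, log scale) for the 104 clone-named genes (solid) and the 119 other listed genes (dashed), and the dotted vertical lines mark their medians, 73.9 and 151. The solid line runs to the left of the dashed line over most of the range, except at its lower end.

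Clone-based names were also more frequent among the listed genes than among all genes of the gene name table. By its symbols, which can be read in the same way for both sets, 81 of 207 listed genes with an entry (39.1%) had a clone-based name. Among all 29201 genes of the gene name table there were 6336 (21.7%). Entries were found for 90 of 104 members and 117 of 119 other listed genes, so the 39.1% leaves out more members than others. Serial names of non-coding RNAs were not counted as clone-based. Whether this share depends on the level or the type of the genes was not tested, since genes outside the deposited table have no values here.

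Few members came from the same clone. The 86 members with a si: name or an accession were drawn from 84 clones or contigs, and 2 of these named 2 members each. The genes si:ch211-209l18.4 and si:ch211-209l18.2 had 269 and 111 normalized counts, a ratio of 2.43. The gene name table holds 6 genes named from this clone, and the 4 others, si:ch211-209l18.3, si:ch211-209l18.5, si:ch211-209l18.6 and si:ch211-209l18.8, were not listed. The genes CR927050.1 and CR927050.2 had 53.8 and 21.7 normalized counts, a ratio of 2.48. They are si:ch211-145h19.1 and si:ch211-145h19.2 by their present names, and 3 of the 5 genes named from that clone were not listed. Absence from the table does not show that a gene was unchanged. Clones were then read from present names, or from deposited names where the present name holds no clone. By this reading, 68 members belonged to 66 clones that name at least 1 gene in the gene name table. For 19 of these members the clone named a single gene there. They include si:dkey-269i1.4, whose own name in that table is *ctslb.4*. The most crowded clone was that of si:dkey-58f10.4, with 11 named genes, of which only this one was listed.

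The zgc: numbers gave 2 further sets of close numbers, which are catalogue numbers and do not by themselves show a shared place in the genome. The genes zgc:171490 and zgc:171497 had 26.3 and 73.6 normalized counts. The genes zgc:194207, zgc:194209 and zgc:194246 had 360, 285 and 74.0.

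Gene order could be read for the 49 members (47.1%) that matched a single RefSeq gene, against 110 of 119 other listed genes (92.4%). Because under 80% of the members have a place, a comparison of the members with other genes by position or gene type is void, and only the values of placed members are given. Among the 49, RefSeq lists 40 as protein-coding and 9 as long non-coding RNA. The median was 90.7 normalized counts in the protein-coding members (14.1 to 14769) and 49.5 in the non-coding members (15.2 to 360). The highest of the non-coding members was zgc:194207.

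Within 10 protein-coding genes of another placed listed gene lay 10 of the 49 placed members, and members near each other were both counted. Only the 159 listed genes with a place could serve as neighbours, so genes without a place were not considered. Whether this is more than for other genes was not tested. The closest was the non-coding gene si:ch73-191k20.3 (43.3 normalized counts), which was 1 gene from *elavl1b*, an RNA-binding protein gene with 5955. si:ch211-209l18.4 was 4 genes from zgc:171490, while zgc:171497 lay 16 genes from si:ch211-209l18.4, beyond the window of 10. The other member of this clone, si:ch211-209l18.2, was not placed. zgc:194207 and zgc:174696 (111 normalized counts) were also 4 genes apart. si:ch211-281l24.3 (164) lay 4 genes from *gal3st2* (56.3), zmp:0000001020 lay 6 genes from *myrfl* (66.6), and ENSDARG00000098171 and BX927244.1 (47.4) lay 7 genes from each other. zgc:153846 was 10 genes from *crygm2d17*, a lens gamma crystallin with the highest mean normalized count of the table, 357210. On the chromosome of *crim1* 1 placed member was found, si:dkey-21a6.5 (147 normalized counts), 67 protein-coding genes from *crim1*.

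Reads of some members may be shared with other genes. Of the 49 placed members, 19 have a locus that overlaps that of a protein-coding gene in RefSeq, introns included. For example, si:ch73-1a9.3 overlaps *igsf5a* and si:dkey-253d23.3 overlaps *blf*. The non-coding members among them are zgc:194207 (360 normalized counts), si:dkey-62k3.5 (154) and CR790366.3. They overlap LOC137491011, *rtn4rl1a* and *grik2* in that order. These are overlaps of whole loci in an assembly that is not the authors' build, and overlap of exons was not examined. The paper's methods describe libraries made from amplified double-stranded cDNA and name no step that keeps strand. How strand was treated in counting is not given in the sources used here. Whether any reads of these members were shared was therefore not tested. Members of expanded families with near-identical copies could also share single-end reads, and their separate values are uncertain to that extent.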

How the data were processed

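RNA of whole eyes at 72 hpf was sequenced in 3 *crim1*-/- and 3 wildtype libraries by the sample labels. The series text gives another number, so how many libraries each mean normalized count covers could not be checked. After trimming of the single-end reads (BBDuk), the authors used STAR for alignment to GRCz11, RSEM for counts per gene and DESeq2 for the comparison (versions: not given in the sources used here). They deposited 1 table of 223 selected genes. The paper's methods describe selection by log2 fold change, adjusted p-value and a floor on mean FPKM, a read measure scaled by exon length. How this floor bears on the counts of the listed genes was not tested. Its mean normalized count is a signal that the authors scaled by size factors and averaged over all libraries. Its other 4 columns hold the authors' log2 fold change, standard error, p-value and adjusted p-value and were not used. No test was made.

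Members were found by symbol. Gene IDs were looked up in a gene name table, and symbols or synonyms in RefSeq (assembly GRCz12tu), used for names, gene type, overlap and gene order only, since it is not the authors' build. Symbols matching several RefSeq genes (2 members) were not placed. Described by name are the 10 highest and 5 lowest members, those sharing a clone, and those within 10 genes of another placed listed gene. So are the zmp: members, the row without a symbol and members with a gene name. Members with serial non-coding names or close zgc: numbers, and the placed member on the chromosome of *crim1*, are also named. Some members are named as examples of replaced names or of overlapping loci. Members and rules were chosen with earlier results of these data known. Symbol reading and gene order were tested on simulated data. Planned counts of near-identical proteins and groups by protein family were not made, for lack of protein sequences and descriptions here. Alternatives covered naming, low-count limits, the summary used and the window. Calculations ran in Python 3.11.15 with pandas 2.3.3 and NumPy 2.4.6, and figures were drawn with Matplotlib 3.10.9.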

Additional observations from a re-analysis of the deposited data

How the results depend on the processing

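The share of clone-based names, 46.6%, was 39.8% among genes with at least 50 normalized counts. It was 39.1% by present symbols among listed genes that have one, an alternative chosen after seeing the data. With zgc: genes not counted as members but kept among the listed genes, it was 40.4%. With the 7 members that have a gene name treated in the same way, it was 43.5%. The median of 73.9 normalized counts was 84.5 among members with at least 20, 70.3 without zgc: genes, and 92.6 as a geometric mean with a pseudocount of 1. The ratio to the other listed genes, 0.489, was 0.549 with at least 20 normalized counts and 0.484 from geometric means, so the members stayed below the other genes in these alternatives. With close zgc: numbers counted as sets, 4 sets in place of 2 named several members, because more names are grouped by construction, and present names again gave 2. Within 5 genes of another placed listed gene lay 6 members and within 20 genes 14, in place of 10. Fits without single replicates were not run. No paired analysis was possible because the table holds no value per library. Without depth or spread per library, the precision of a member's mean could not be given. The alternatives for near-identical proteins were not run.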
